A study of Gallus gallus with 4 samples.

Results

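Proneural factors are transcription factors, mostly of the basic helix-loop-helix (bHLH) class, that start the neuronal programme in a dividing progenitor. Notch signalling restrains them: a cell whose Notch receptor is active makes repressors of the HES family, which keep proneural genes low, and γ-secretase is the protease that frees the active part of the receptor. In the vertebrate retina the bHLH factors also steer cell type, ATOH7 towards ganglion cells and the NEUROD factors towards photoreceptors and amacrine cells.

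The 7 genes described here were listed by symbol as proneural and neurogenic factor genes: ATOH7, NEUROD1, NEUROD4, EBF1, CBFA2T3, GADD45G and CATH1. They are 7 of the 5382 genes that could be named on the array, and a probe counted as theirs when the array annotation gave it a RefSeq transcript of the gene. Together they had 13 probes, each a single spot. All 7 passed the filter on dim probes, ATOH7 through the DAPT arrays alone. The group name itself rests on the list of symbols and not on the annotation. For 6 of the genes no listed synonym points to a gene of another family, although GADD45B is listed as a synonym of GADD45G. The symbol CATH1 is the exception. The RefSeq gene table lists CATHL1 as its synonym, which is cathelicidin 1, an antimicrobial peptide of chicken immune cells. The chick atonal homologue once called Cath1 carries the symbol ATOH1. CATH1 is therefore reported last and apart from the neurogenic genes.

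Neural retina of chick embryos at embryonic day 8 (stage 33) was dissociated with trypsin and plated in medium with serum. DAPT, a γ-secretase inhibitor, was present at 10 µM from day 2 to day 12 in 2 samples, and its solvent DMSO alone at equal volume in the other 2. RNA taken on day 12 was hybridised to 1-colour Agilent arrays, 1 array per sample. Whether the 2 samples of a group were separate platings or embryos is not stated in the labels, and the p-values below therefore rest on a spread between samples that may be purely technical.

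Each slide carried 1 DAPT and 1 DMSO array of the same replicate number, so each difference was also read within a slide. Between 85.7% and 89.3% of spots were well above background, and no probe of the 7 genes was saturated or carried an outlier flag. Retinal transcripts such as those of PAX6, OTX2 and the cone transducin GNAT2 were well above background in both groups, but not at equal levels. On the log2 scale GNAT2 was lower in DAPT (-1.19), PAX6 was higher (0.57) and OTX2 did not pass (0.35). OTX2 also stands in the pigment epithelium list. Of the tested markers, 5 of 6 for photoreceptors and 4 of 5 for amacrine cells were lower in DAPT, and none was higher. All 10 tested fibroblast and mesenchyme markers were lower in DAPT (median log2 difference -3.58), and 9 of 10 tested lens markers were higher (median 5.46). At the same threshold, given below, 13.8% of features with a gene symbol were lower and 14.2% higher. Because whole cultures were measured, fewer cells of a type and less RNA per cell cannot be told apart.

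Signals are given as a percentage of the array's own 75th percentile (the processed signal below which 75% of spots fall), differences as log2 signal in DAPT minus DMSO. Of the 7 genes, 1 was higher in DAPT (GADD45G) and 2 were lower (EBF1 and CBFA2T3) at an adjusted p under 0.05 in limma, with Benjamini-Hochberg adjustment over all 32294 features. Over all features 25.5% passed, 12.4% as higher and 13.1% as lower, so a share of 3 in 7 is to be read against that background. The median difference of the 7 genes, CATH1 and the dim ATOH7 counted, was -0.18, beside 0.061 for all features. That median is the value of NEUROD1, and no shift of the neurogenic genes is read from it. The 2 groups did not overlap for 6 of the 7, ATOH7 with its dim DMSO spots among them, as was so for 65.6% of all features. With 2 arrays a group, an exact permutation test of a single gene cannot give a two-sided p below 0.333.

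**Figure D1:**
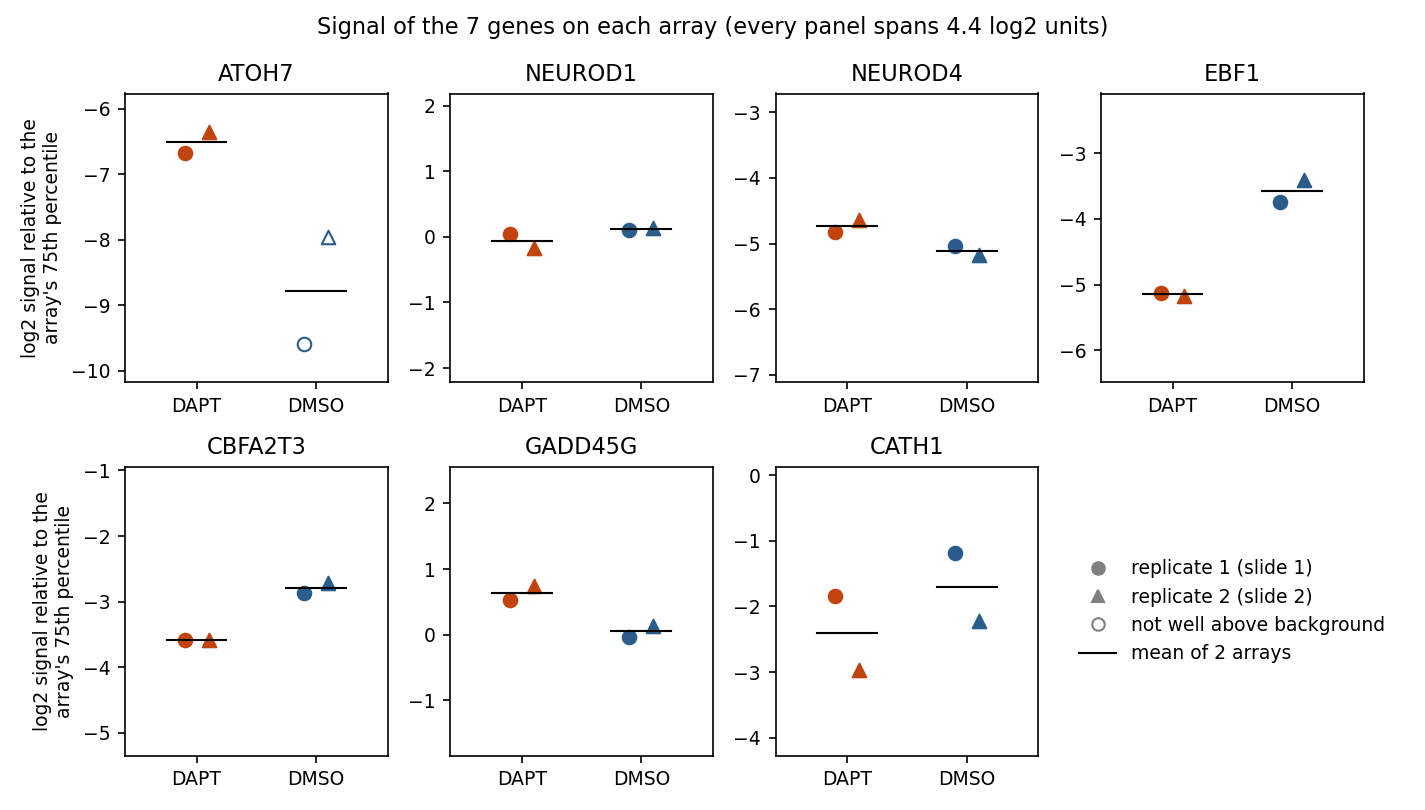
Log2 processed signal of each gene relative to the 75th percentile of its array (vertical axis, log2 units, the same span in every panel) in DAPT and DMSO cultures; points are arrays, lines are means of 2 arrays, open points are arrays on which the probe was not well above background. EBF1 and CBFA2T3 lie lower in DAPT and GADD45G higher, ATOH7 is measured only in DAPT, and the replicates of CATH1 lie farther apart than its group means.

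ATOH7, the bHLH factor needed for ganglion cell formation in mouse and zebrafish, was measured in DAPT cultures and was at the limit of detection in DMSO cultures. Its single probe gave 0.974% and 1.23% of the 75th percentile in DAPT, well above background on both arrays, against 0.130% and 0.400% in DMSO, on neither of which it was well above background. The deposited error of each spot shows how near the limit this was. The processed signal was 14.4 ± 1.81 and 17.3 ± 2.11 units in DAPT, against 2.08 ± 2.07 and 5.97 ± 1.48 units in DMSO (signal ± scanner error). On the first DMSO array the error was as large as the signal.

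ATOH7 was 2.37-fold higher in DAPT when each DMSO array entered at its floor, or at the probe's own signal if that was higher. The floor is the dimmest signal of any probe called well above background on that array. A probe can exceed it without being well above background, and scanner error is not counted. The 2.37-fold value is therefore no strict lower limit. The floor was 0.533% and 0.394% of the 75th percentile on the 2 DMSO arrays, above the ATOH7 signal on the first and just below it on the second. The measured means were -6.52 ± 0.23 in DAPT and -8.78 ± 1.15 in DMSO (log2 relative to the 75th percentile, SD, n = 2), and the gene did not pass in limma (adjusted p = 0.0526). Because it entered the test only through the group in which it was high, that p and its value under other settings support no call. Under normexp correction the ATOH7 difference was smaller, at 0.35 on the log2 scale, so its size depends on the processing. That setting adds an offset of 50 units to every spot, which by itself shrinks the log2 differences of dim probes.

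NEUROD1, which acts in amacrine and photoreceptor formation, was bright in every culture. It gave 103% and 89.0% of the 75th percentile in DAPT, against 107% and 110% in DMSO. Both DAPT arrays lay below both DMSO arrays, by a margin smaller than the spread between the DAPT arrays themselves. The difference was -0.18 ± 0.12 (adjusted p = 0.346 in limma), with a 95% interval from -0.51 to 0.14. A fall by more than 0.51 or a rise by more than 0.14 on the log2 scale lies outside that interval.

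NEUROD4, known in chick as NeuroM and expressed as young neurons leave the cell cycle, was dim but well above background on all 4 arrays, and its 2 probes differed in outcome. The brighter probe gave 3.52% and 4.00% in DAPT, against 3.05% and 2.76% in DMSO. Its difference was 0.37 ± 0.13 and did not pass (adjusted p = 0.104 in limma), with 0.21 on slide 1 and 0.53 on slide 2. The dimmer probe gave 2.34% and 2.48% in DAPT, against 1.43% and 1.19% in DMSO. With all probes tested as separate features, where 26.4% passed, this second probe was 0.88 ± 0.13 higher and passed (adjusted p = 0.0135). Its difference was 0.71 on slide 1 and 1.06 on slide 2. Both probes had the 2 DAPT arrays above the 2 DMSO arrays. With the mean of both probes the gene was at 0.63 (adjusted p = 0.0302, over all alternatives 0.0302 to 0.464).

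**Figure D2:**
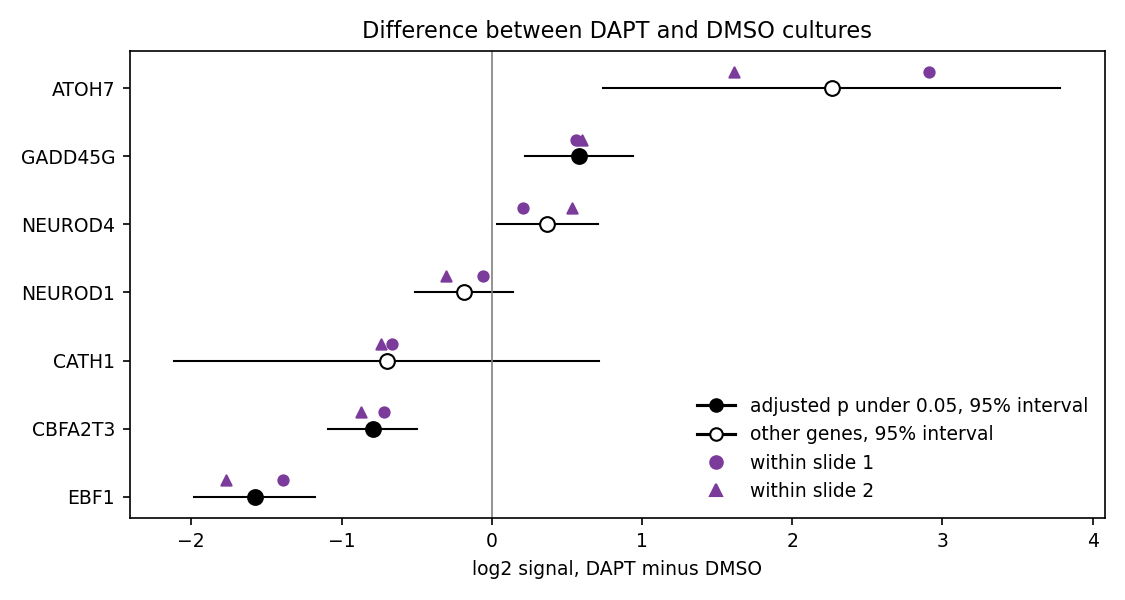
Log2 signal in DAPT minus DMSO (horizontal axis) for each gene, with the 95% interval from limma as a line, filled where the adjusted p was under 0.05, and the difference within each slide as a small symbol above it. EBF1 lies lowest at -1.58, and the point and interval of ATOH7 rest on DMSO spots that were not well above background. The sign is the same on both slides for all 7 genes, as it is for 84.0% of all features.

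EBF1 was the most clearly lowered of the 7. It belongs to the COE (Collier/Olf/EBF) zinc-knuckle factors, which act downstream of proneural factors in neuronal differentiation in vertebrate embryos and are also used in B cells and connective tissue. The brighter probe gave 2.87% and 2.77% in DAPT, against 7.51% and 9.46% in DMSO, a signal 2.99-fold lower in DAPT. The 2 DAPT arrays lay almost on top of each other and far from both DMSO arrays.

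The group means were -5.15 ± 0.035 in DAPT and -3.57 ± 0.24 in DMSO (SD, n = 2), and the fall of EBF1, -1.58 ± 0.15, passed in limma (adjusted p = 0.00488). Its size exceeded that of 93.9% of all features. The second probe gave 1.06% and 1.23% in DAPT, against 2.86% and 3.53% in DMSO, and was at -1.48 ± 0.16 (adjusted p = 0.00543 with all probes tested). EBF1 kept its sign and its side of the threshold in all 15 alternatives (adjusted p = 0.00222 to 0.0251), with -1.39 on slide 1 and -1.77 on slide 2. Under normexp correction, with the same offset, it was at -0.92.

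The fibroblast and mesenchyme markers were also lower in DAPT. The summed signal of the 9 of them read on every array was 1250% and 1171% of the 75th percentile in DAPT, against 13525% and 15976% in DMSO. Most of that sum came from COL1A2, with 1119% and 1055% in DAPT, against 11251% and 13803% in DMSO. No tested fibroblast and mesenchyme marker was below background on both arrays of either group. A fall was not particular to these markers. Medians were -1.68 for amacrine, -1.58 for endothelial, -1.39 for photoreceptor, -1.09 for pan-neuronal, -0.82 for ganglion cell and -0.45 for progenitor markers. Not all of these lists fell as a whole. Of 4 endothelial markers 2 were called lower and 1, LMO2, higher. Their summed signal was 196% and 219% in DAPT, against 297% and 179% in DMSO. Of 5 progenitor markers 2 were called lower and 1 higher. Their sum, mostly PAX6, was higher in DAPT (2229% and 2375%, against 1782% and 2000% in DMSO). Pan-neuronal and ganglion cell markers were also mixed, with 3 called lower in each list and 2 and 1 called higher. The lens (5.46), pigment epithelium (1.58), blood and microglia (0.34) and Müller glia (0.32) lists had positive medians. The last 2 lists did not rise as a whole. Of 6 Müller glia markers 2 were called higher, 2 lower and 2 did not pass, and of 5 blood and microglia markers 1 was called higher and 4 did not pass. The part of any list in the EBF1 result was not tested. EBF2, the only other EBF gene tested, was close to background, at 0.192% and 0.451% in DAPT and 0.613% and 0.451% in DMSO, and did not pass (-0.84 ± 0.45, adjusted p = 0.253). It was not well above background on the array of DAPT replicate 1, without which it was at -0.22. It was at -1.45 without DAPT replicate 2, and at -0.014 under normexp correction with its offset.

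CBFA2T3, also called MTG16, is a corepressor of the ETO (MTG) family, which has no DNA binding of its own and is brought to genes by bHLH complexes. It was lower in DAPT, at 8.33% and 8.37% against 13.7% and 15.3% in DMSO for its brightest probe, a 1.73-fold lower signal. The DAPT arrays were nearly identical and both lay below the DMSO arrays. Means were -3.58 ± 0.0046 in DAPT and -2.79 ± 0.11 in DMSO (SD, n = 2), and the difference of -0.79 ± 0.11 passed (adjusted p = 0.0121 in limma), with -0.72 on slide 1 and -0.87 on slide 2.

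The 3 probes of CBFA2T3 had the same sign but not the same size. The second gave 1.49% and 1.57% in DAPT, against 1.93% and 2.62% in DMSO (-0.55 ± 0.18, adjusted p = 0.0897 with all probes tested). The third gave 1.56% and 1.69% in DAPT, against 1.86% and 2.13% in DMSO (-0.29 ± 0.12, adjusted p = 0.163). Only the brightest of the 3 passed, and the other 2 gave under 3% of the 75th percentile on every array. Without DAPT replicate 1 or DAPT replicate 2 the call was lost (adjusted p = 0.0867 and 0.0872), although the difference itself stayed at -0.79 and -0.80.

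GADD45G was the single gene of the 7 called higher. It encodes a small stress-induced protein that binds PCNA and the kinase MAP3K4 and that marks cells leaving the cycle, including newborn neurons in frog embryos. The gene table lists GADD45B as a synonym, so which GADD45 paralogue the probes read rests on that table. GADD45G gave 144% and 167% in DAPT, against 97.9% and 110% in DMSO, a 1.50-fold higher signal. Each DAPT array lay above both DMSO arrays.

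The second GADD45G probe was tighter, with 49.4% and 49.4% in DAPT and 31.7% and 32.1% in DMSO, and was 0.63 ± 0.097 higher (adjusted p = 0.0141 with all probes tested). For the brighter probe the rise was 0.58 ± 0.13 (adjusted p = 0.0423 in limma), with 0.56 on slide 1 and 0.60 on slide 2, and with the slide as a block the adjusted p was 0.0108 (0.0108 to 0.246 over 15 alternatives). The call of the brighter probe was lost when any 1 array was left out, with differences from 0.48 to 0.69 and adjusted p from 0.0696 to 0.246. DAPT replicate 2 and DMSO replicate 1 carried the largest and the smallest of the 4 values.

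**Figure D3:**
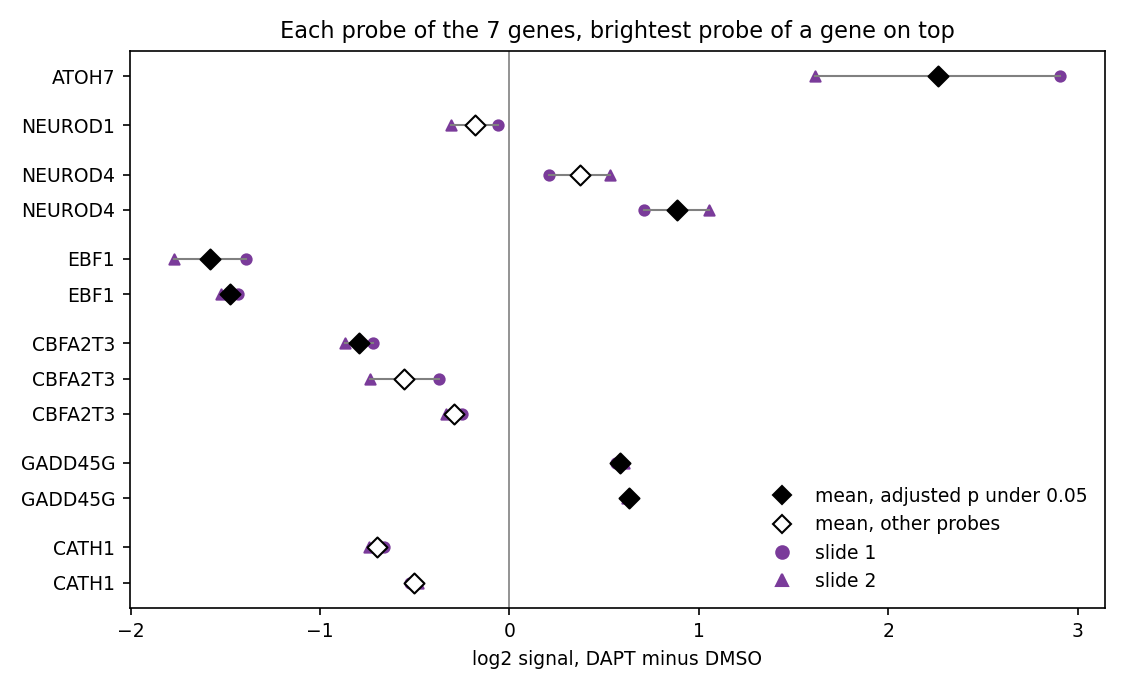
Log2 signal in DAPT minus DMSO (horizontal axis) for every probe of the 7 genes, with the means as diamonds (filled where the adjusted p was under 0.05 with all probes tested) and the 2 slides as small symbols. Probes of 1 gene share their sign, and the probes of NEUROD4 (0.37 and 0.88) and CBFA2T3 (-0.79 to -0.29) differ most in size.

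CATH1, cathelicidin 1, differed between slides more than between groups. Its brighter probe gave 27.9% on slide 1 and 12.8% on slide 2 in DAPT, against 44.1% on slide 1 and 21.3% on slide 2 in DMSO. The groups overlapped, since the DAPT value of slide 1 lay above the DMSO value of slide 2. Without a block the difference of -0.70 ± 0.53 did not pass (adjusted p = 0.401 in limma).

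Within each slide CATH1 was lower in DAPT by nearly the same amount, -0.66 on slide 1 and -0.74 on slide 2. With the slide as a block the difference was -0.70 ± 0.084 (adjusted p = 0.00732 in limma). That fit leaves 1 residual degree of freedom, so its error rests in part on the spread shared across features. Fits with 1 array left out had no block, and there the difference ranged from -1.26 to -0.14. The second probe gave 17.4% and 8.13% in DAPT, against 25.1% and 11.4% in DMSO, with -0.53 and -0.48 on the 2 slides. Of 5 blood and microglia markers tested none was called lower and 1, CD74, was called higher. Their summed signal was 325% and 357% in DAPT, against 159% and 151% in DMSO, most of it from CD74, and the leukocyte gene PTPRC was at -0.048 ± 0.24 (adjusted p = 0.911). Their part in the CATH1 values was not tested.

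With the slide as a block, GADD45G was higher and 3 of the 7 genes were lower (EBF1, CBFA2T3 and CATH1), leaving aside ATOH7, which was not measured in DMSO, where 39.8% of all features passed, 21.2% as higher and 18.6% as lower. The single probe of ATOH1, the gene that the name Cath1 once stood for, was not well above background on any array. Its processed signal was 3.48 ± 1.07 and 4.14 ± 1.29 units in DAPT, against 1.97 ± 1.97 and 2.00 ± 1.42 units in DMSO (signal ± scanner error). NEUROG1 and HES5 were likewise not well above background on any of the 4 arrays.

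Related genes were counted in 7 lists, from which the genes above were left out. Of 52 distinct genes tested, 7 were higher and 22 lower, or 55.8%, against 28% of all features with a gene symbol (14.2% higher and 13.8% lower). The lists were made with earlier results of these data in view. Their median difference was -0.27, beside 0.081 for features with a gene symbol.

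From the list of bHLH and zinc finger proneural factors, 2 other tested genes are reported here, and neither passed in limma. BHLHE23, a bHLH repressor of the OLIG family, was at 0.83 ± 0.20 and just missed the threshold (adjusted p = 0.0502), with 3 of its 5 probes passing when all probes were tested and with an adjusted p of 0.0324 under the slide block (0.0220 to 0.192 over its alternatives). OLIG2, a bHLH factor of glial and motor neuron lineages, was at 0.24 ± 0.18 for its brightest probe, and 1 of its 3 probes passed when all were tested.

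The E proteins pair with proneural factors and the ID proteins capture E proteins. In this list of 6 tested genes 1 rose and 1 fell, or 33.3%, near the 28% of features with a gene symbol. ID2 gave 747% and 724% in DAPT, against 284% and 251% in DMSO, a rise of 1.46 ± 0.12 (adjusted p = 0.00336) that its 3 probes shared. TCF12, an E protein, gave 616% and 638% in DAPT, against 824% and 922% in DMSO (-0.47 ± 0.11, adjusted p = 0.0461), but only 3 of its 11 probes passed when tested separately and the call was lost in 8 of 15 alternatives. The E protein gene TCF3 was at -0.23 and the ID genes ID1, ID3 and ID4 were at 0.53, 0.26 and 0.32, none of them past the threshold. ID1 passed with the slide as a block (adjusted p = 0.0207).

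Of the relatives and partners of EBF1, CBFA2T3 and GADD45G, 1 of 10 rose and 2 fell, or 30%, near the 28% of features with a gene symbol. LMO2, an adaptor of the TAL1 and E protein complexes to which CBFA2T3 binds in blood cells, gave 118% and 135% in DAPT, against 22.6% and 20.8% in DMSO, a rise of 2.54 ± 0.13 (adjusted p = 0.00145). CBFA2T3 and LMO2 thus moved in opposite directions, and TAL1 itself was near background (0.657% and 0.478% in DAPT, 0.247% and 0.361% in DMSO). LMO2 also stands in the endothelial marker list, and TAL1 in the blood and microglia list. The other ETO family genes, CBFA2T2 and RUNX1T1, were at -0.41 ± 0.13 and -0.47 ± 0.15 and did not pass (adjusted p = 0.0910 and 0.0935). RUNX1T1 did pass with the slide as a block (adjusted p = 0.0351).

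RUNX1, a runt-domain factor, gave 34.6% and 34.8% in DAPT, against 84.3% and 104% in DMSO, a fall of -1.43 ± 0.14 (adjusted p = 0.00525). CDKN1A, which encodes the cell cycle inhibitor p21 and is often induced together with GADD45 genes, gave 4709% and 4773% in DAPT, against 9045% and 7773% in DMSO. It was lower (-0.82 ± 0.12, adjusted p = 0.0141) while GADD45G was higher, and without DAPT replicate 1 or 2 its call was lost (adjusted p = 0.0901 and 0.0873). GADD45A was at 0.16 ± 0.18 and did not pass.

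**Figure D4:**
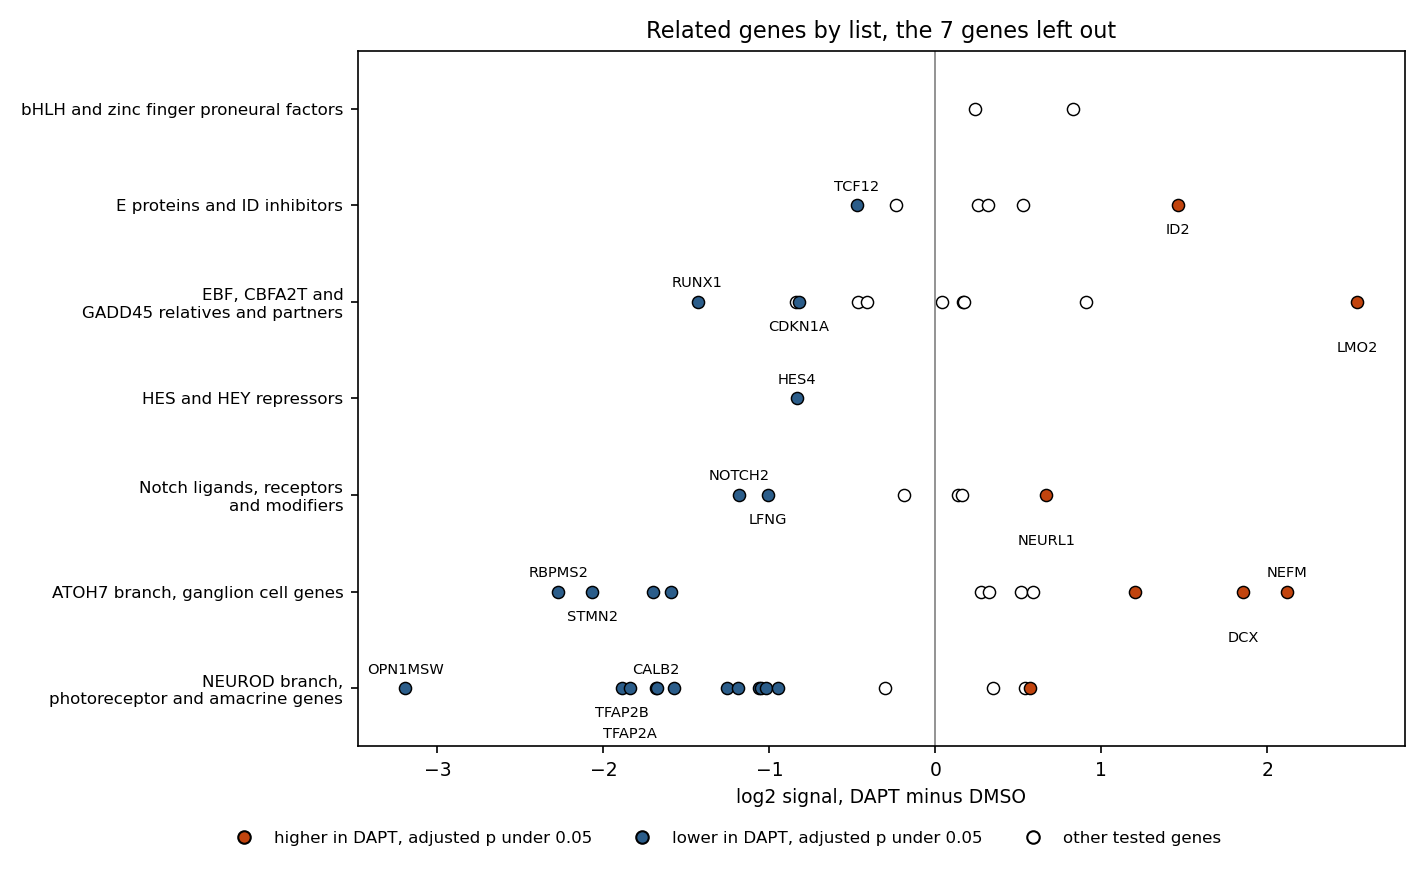
Log2 signal in DAPT minus DMSO (horizontal axis) for each tested gene of the 7 related lists, coloured where the adjusted p was under 0.05, with names for up to 4 called genes per list. Of 52 distinct genes 7 are higher and 22 lower, and 12 of the 22 are in the photoreceptor and amacrine list.

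The single HES repressor tested, HES4, was at 32.8% and 33.1% in DAPT, against 52.9% and 65.0% in DMSO, and was called lower (adjusted p = 0.0191), though not without DAPT replicate 1 or 2 (adjusted p = 0.1004 and 0.0992). Of 6 genes for Notch ligands, receptors and modifiers 1 rose (NEURL1) and 2 fell (NOTCH2 and LFNG). That is 50%, beside 28% of features with a gene symbol. LFNG, which encodes a fringe enzyme that modifies Notch, gave 1775% and 1947% in DAPT, against 3836% and 3640% in DMSO. Its call was lost without DAPT replicate 1 (adjusted p = 0.0531), and that of NEURL1 without DAPT replicate 1, DAPT replicate 2 or DMSO replicate 2 (adjusted p = 0.127, 0.106 and 0.0511).

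Among 11 ganglion cell genes of the ATOH7 branch, 3 rose and 4 fell, or 63.6%, beside 28% of features with a gene symbol, with a median of 0.32. Of these, ELAVL4, DCX, STMN2 and NEFM are also in the pan-neuronal marker list. Of the 6 tested pan-neuronal markers 2 rose and 3 fell, or 83.3%, with a median of -1.09. The ganglion cell marker list holds no pan-neuronal marker but overlaps the ATOH7 branch list in 4 of its 5 tested genes. In it 1 rose and 3 fell, or 80%, with a median of -0.82. The riser was SNCG, also in the ATOH7 branch list, at 111% and 129% in DAPT, against 48.6% and 55.7% in DMSO (1.20 ± 0.14, adjusted p = 0.00754 in limma). CHRNB3, the nicotinic receptor subunit gene whose promoter ATOH7 activates in chick retina, gave 15.2% and 16.0% in DAPT, against 46.5% and 55.7% in DMSO for its brighter probe. CHRNB3 was called lower, although 1 of its 2 probes did not pass. No direction is read between CHRNB3 and ATOH7, whose DMSO spots were not well above background. RBPMS2 gave 3.60% and 3.51% in DAPT, against 16.9% and 17.5% in DMSO, and STMN2 gave 208% and 207% in DAPT, against 987% and 764% in DMSO. NEFM, by contrast, gave 395% and 293% in DAPT, against 76.7% and 80.1% in DMSO, and DCX gave 107% and 114% in DAPT, against 36.1% and 25.8% in DMSO. ISL1 was at 0.52 ± 0.20 and did not pass (adjusted p = 0.136). It passed with the slide as a block (adjusted p = 0.0420) and without DMSO replicate 1 (0.77, adjusted p = 0.0377).

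Of 16 genes for photoreceptors and amacrine cells, the cell types of the NEUROD branch, 12 fell and 1 rose, or 81.2%. That stands beside 28% of features with a gene symbol (14.2% higher and 13.8% lower). The median of the list was -1.13, while NEUROD1 itself was at -0.18. OPN1MSW, a cone opsin, gave 2.30% and 1.99% in DAPT, against 24.1% and 15.8% in DMSO. The amacrine genes TFAP2A, TFAP2B and CALB2 were at -1.84, -1.89 and -1.68, each past the threshold. In 4 arrays this is a description of lists side by side, and no test compared them with the 7 genes.

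For each of the 3 called genes, the 3 named genes with the nearest profile were found by Euclidean distance between values centred on the gene's mean over 4 arrays, among 5038 genes. EBF1 lay nearest to GCG (preproglucagon, distance 0.084), BST1 (0.10) and SLC40A1 (the iron exporter ferroportin, 0.11). CBFA2T3 lay nearest to NFIC (a nuclear factor I gene, 0.026), EPHB6 (an Eph receptor, 0.036) and PTPRU (a receptor phosphatase, 0.046). GADD45G lay nearest to CCND2 (cyclin D2, 0.042), ASB9 (0.046) and TPST2 (a sulfotransferase, 0.053). With 4 arrays in 2 groups, a near profile means little more than a change of the same size and sign.

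**Figure D5:**
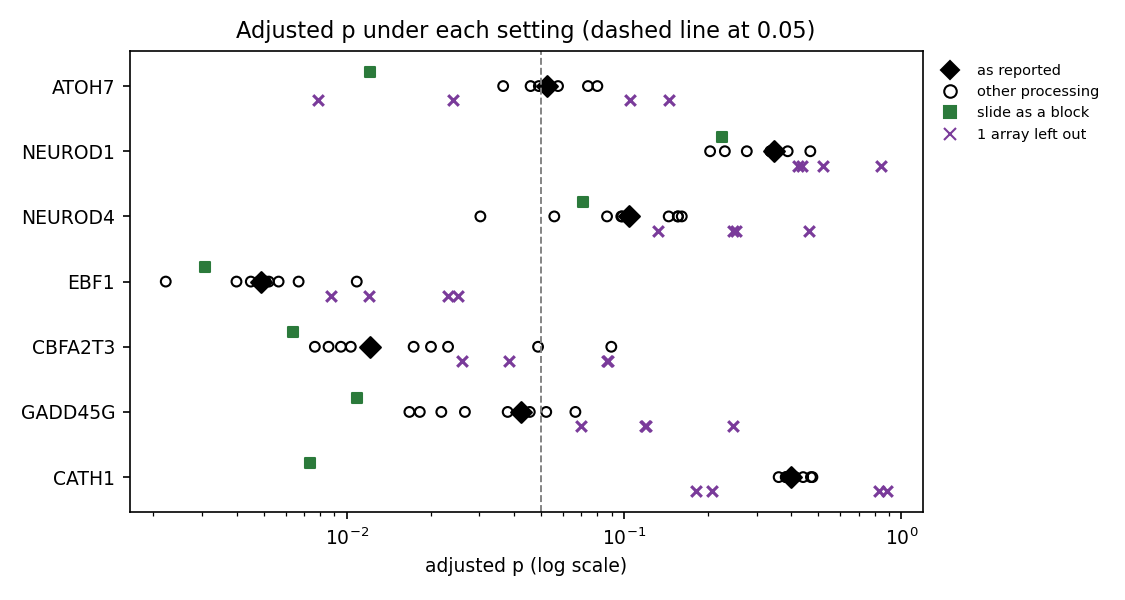
Adjusted p of each gene (horizontal axis, log scale) as reported, under other processing, with the slide as a block and with 1 array left out; the dashed line marks 0.05. All points of EBF1 lie below 0.05, all points of NEUROD1 lie above it, and those of the other 5 genes fall on both sides.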

How the data were processed

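Total RNA (100 ng per sample) of 2 DAPT and 2 DMSO cultures was labelled with Cy3, per the labels' protocols. Agilent Feature Extraction 11.5.1.1 made the spot values, per the file headers. Its processed signal, an intensity after background subtraction, was deposited with an error and with flags for each spot. The authors' value table holds that intensity multiplied by 1 factor per array (1.41 to 1.51); what set the factors is not given in the sources used here.

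Log2 processed signal minus the array's 75th percentile was analysed after outlier-flagged spots (4 to 8 per array) were left out. Genes were named through a RefSeq table of assembly GRCg7b by unversioned accession (11935 of 43603 probes), and list genes by exact symbol; some listed genes are not reported here and were left out of the list counts. The brightest probe stood for a gene. Features well above background on both arrays of a group were tested with limma 3.58.1 in R 4.3.3 without a block. Genes and lists were chosen with earlier results of these data known. Named were all 7 genes, up to 4 called genes per list, every tested HES, HEY, ID and E protein gene, and the 3 nearest profiles. Named after their values were seen were PAX6, OTX2, GNAT2, ELAVL4, CD74, PTPRC, COL1A2, ATOH1, NEUROG1, HES5, OLIG2, BHLHE23, EBF2, CBFA2T2, RUNX1T1, TAL1, GADD45A, CHRNB3, SNCG and ISL1. Alternatives covered background correction (normexp, offset 50, on median signals), scaling, the authors' values, the dim-probe filter, probe choice, the prior, the slide and each array left out. With all probes tested, a gene took the median adjusted p of its probes.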

Additional observations from a re-analysis of the deposited data

How the results depend on the processing

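EBF1 and NEUROD1 kept their sign and their side of the threshold in all 15 alternatives; every other gene of the 7 kept its sign. Changes of call in the fits on all 4 arrays were as follows, and their cause was not tested unless stated. For fits with 1 array left out, only the range of a gene's difference is given here, and changes of call are not listed. ATOH7 passed with median scaling (2.31), all probes tested, the trended prior and the replicate block (2.26 each). It was at 0.35 under normexp correction and ranged from 1.45 to 3.07 with 1 array left out. With the filter that asks for all 4 arrays it could not be tested. The DMSO spots of ATOH7 were not well above background, so neither its size nor its passes are support for a rise. NEUROD4 passed with the mean of its probes (0.63). CATH1 passed with the replicate block (-0.70) and ranged from -1.26 to -0.14 with 1 array left out. CBFA2T3 missed the threshold with all probes tested (-0.55), and ranged from -0.87 to -0.72 with 1 array left out. GADD45G missed it with the authors' values as deposited (0.52, an alternative chosen after seeing the data) and with no filter (0.58), and ranged from 0.48 to 0.69 with 1 array left out. The replicate block leaves 1 residual degree of freedom, and so does leaving out an array. Leaving out an array also assumes that the lone array varies like the other group. Of the 7 genes, ATOH7 counted where it passed, 2 were higher with median scaling, all probes, mean of probes, the trended prior and the replicate block. GADD45G was 1 of these 2 throughout, with NEUROD4 for the mean of probes and ATOH7 otherwise. With the authors' values as deposited or no filter 0 were higher, and with all probes tested 1 was lower. Over all features 3991 were higher and 4234 lower; with the replicate block 6858 were higher, and with 1 array left out 1345 to 3078 were higher and 2032 to 3360 lower. Among related genes 12 were higher with the replicate block, and 5 to 9 with 1 array left out. Alternatives were compared for 30 of the related genes named, with 448 values. Of these, 412 kept sign and side of the threshold, 17 lost the call, 18 gained it and 1 turned its sign (GADD45A, -0.035 without DMSO replicate 1 and 0.36 without DMSO replicate 2). Same-numbered arrays deviated together (correlation 0.583 across features); with 2 pairs the crossed value is the same with the opposite sign, and the labels name no pairing beyond the number, so the block stands for the slide. The authors' values scaled to the percentile gave the same calls by construction. Probes near background, such as those of ATOH7 and EBF2, limit what can be measured.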
